A study of Mus musculus with 6 samples.

Results

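miR-143 and miR-145a are 2 microRNAs (miRNAs, short RNAs that lower the output of matching messenger RNAs) made from neighbouring hairpins of 1 primary transcript. Each hairpin gives a mature miRNA from either arm, so the cluster has 4 mature members, miR-143-3p, miR-143-5p, miR-145a-5p and miR-145a-3p. They were taken by name from a small RNA sequencing table of 1960 mouse miRNAs. The rule itself uses no measured value, but the members were chosen with earlier results of these data known. All 4 members passed the filter on low counts, as did 297 miRNAs in all. The libraries were made from liver immune cells of wildtype female C57BL/6J mice aged 10 weeks, with 2 biological replicates in each of 3 groups. ConA+D8THC mice were given 12.5 mg/kg of concanavalin A (ConA) by the retro-orbital route; ConA is a lectin from jack beans that stimulates T cells and brings on acute hepatitis in mice. They also received delta-8-tetrahydrocannabinol (D8THC), a cannabinoid, dissolved in DMSO and corn oil and injected into the peritoneum at 20 mg/kg in a volume of 100 µL, with a first dose 15 to 18 h ahead of ConA and a second dose 30 min after. ConA+Vehicle mice received the same dose of ConA with DMSO in corn oil and no D8THC. Vehicle mice received DMSO and corn oil without ConA and had no disease. All 3 groups therefore shared the solvent, and no group received D8THC without ConA.

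As background, miR-143 and miR-145 are best known from smooth muscle, where serum response factor and its partner myocardin drive their transcription and where they favour the contractile over the proliferating state. miR-145 acts there on messenger RNAs such as that of Klf4, and miR-143 on that of Elk1. Outside smooth muscle they are found in other mesenchymal cells, such as fibroblasts, pericytes and, in the liver, stellate cells. Both miRNAs are low in cells of the blood lineages. The strand that is loaded as the guide is mostly the 3p arm of miR-143 and the 5p arm of miR-145, while the opposite arms are passenger strands and mostly degraded.

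The members are set below beside other miRNAs of stellate cells and fibroblasts, miR-199a and miR-214. The whole sequences of miR-199a and miR-214 are shown because they identify what was counted. The seed is bases 2 to 8, the part that pairs with targets. Sequences are from RefSeq on GRCm38.p6, written 5′ to 3′ with the seed in capitals. miR-199a-3p is made from chr9:21496498-21496519 on the minus strand and from chr1:162217883-162217904 on the plus strand. miR-199b-3p, from chr2:32318524-32318545 on the plus strand, has the same 22 bases and no entry of its own in the table, so reads of the pair cannot be told apart. miR-199a-5p comes from the same hairpins at chr9:21496537-21496559 on the minus strand and chr1:162217844-162217866 on the plus strand, and miR-214-3p from chr1:162223438-162223459 on the plus strand.
miR-199a-3p: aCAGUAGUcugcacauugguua
miR-199a-5p: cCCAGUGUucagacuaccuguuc
miR-214-3p: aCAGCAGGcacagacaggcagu

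In mouse genome build mm10 the GENCODE M21 annotation places the Mir145a hairpin on the minus strand of chromosome 18, from 61647825 to 61647894, and the Mir143 hairpin on the same strand from 61649196 to 61649258. The hairpins were 1301 bases apart. Both lie inside the long noncoding RNA gene Carmn as RefSeq draws it, from 61645878 to 61665538, and neither lies inside the shorter GENCODE model of Carmn, from 61649625 to 61665537. A gene with a similar name, Mir145b, lies elsewhere on the chromosome, from 69022199 to 69022273. Its mature miRNA, listed as miR-145b, had no count in the ConA+D8THC and ConA+Vehicle libraries, and 1 and 4 counts in the Vehicle libraries. How the counting treated reads that match more than 1 miRNA is not given in the sources used, so the split between miR-145a and miR-145b is uncertain.

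Library totals ran from 322764 to 1172389 counts and were lowest in ConA+Vehicle. Levels are given in CPM, counts scaled to a common library size after adjustment by trimmed means of M-values (TMM), on which 3 counts, the limit for a miRNA with no count, stood for 2.63 to 9.93 CPM. Markers of other liver cells were present beside those of immune cells. The endothelial markers were only the arms of miR-126a. They took 20.7% and 26.7% of counts in ConA+D8THC, 12.8% and 13.2% in ConA+Vehicle, and 32.7% and 34.2% in Vehicle. Hepatocyte markers took 5.18% and 7.15% in ConA+D8THC, 17.1% and 19.8% in ConA+Vehicle, and 8.35% and 13.9% in Vehicle. Most of this sum was miR-122-5p, at 14.48% and 16.65% in ConA+Vehicle. miR-122-3p of the same list went the other way, at 84.8 and 66.2 CPM in ConA+Vehicle and 157 and 189 CPM in Vehicle. The pan-haematopoietic markers were only the arms of miR-142a. They took 11.2% and 7.72% in ConA+D8THC, 10.3% and 9.03% in ConA+Vehicle, and 7.31% and 2.53% in Vehicle. The part of these differences in the results below was not tested, and fewer cells of a type and less RNA per cell cannot be told apart in such bulk samples.

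miR-143-3p was the most abundant member and ranked 35 of the 297 tested miRNAs by mean level. It had 1772 and 4295 CPM in the ConA+D8THC libraries (replicate 1, then replicate 2, here and throughout), 7936 and 3776 CPM in the ConA+Vehicle libraries, and 4659 and 4088 CPM in the Vehicle libraries. The lowest library belonged to ConA+D8THC and the highest to ConA+Vehicle, while the other 4 lay between 3776 and 4659 CPM. The group levels were 3034 ± 1784 CPM in ConA+D8THC, 5856 ± 2941 CPM in ConA+Vehicle and 4374 ± 403 CPM in Vehicle (SD, n = 2 each). Ordered from low to high as ConA+D8THC, Vehicle and ConA+Vehicle, no neighbouring pair of groups differed beyond the spread of its libraries.

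miR-145a-5p, the guide strand of the second hairpin, ranked 94 of 297. Its level was 117 and 184 CPM in ConA+D8THC, 628 and 149 CPM in ConA+Vehicle, and 466 and 494 CPM in Vehicle. Both ConA+D8THC libraries lay below both Vehicle libraries, and the ConA+Vehicle libraries lay 1 among the lowest and 1 above all others. The group levels were 150 ± 47.3 CPM in ConA+D8THC, 389 ± 339 CPM in ConA+Vehicle and 480 ± 19.8 CPM in Vehicle (SD, n = 2 each), and neither neighbouring pair in that order differed beyond the spread of its libraries.

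The passenger strands were scarce. miR-145a-3p, ranked 211, had 9.29 and 24.2 CPM in ConA+D8THC (9 and 17 counts), 54.9 and 13.2 CPM in ConA+Vehicle (22 and 4 counts), and 33.1 and 34.2 CPM in Vehicle (24 and 39 counts). miR-143-5p, ranked 246, had 7.22 and 12.8 CPM in ConA+D8THC (7 and 9 counts), 32.4 and 0 CPM in ConA+Vehicle (13 and 0 counts), and 41.4 and 25.4 CPM in Vehicle (30 and 29 counts). The count of 0 allows up to 9.93 CPM in that library. For both passenger strands, as for miR-145a-5p, the ConA+D8THC libraries lay below the Vehicle libraries, and of the ConA+Vehicle libraries replicate 1 lay within or above the Vehicle range and replicate 2 within or below the ConA+D8THC range.

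**Figure D1:**
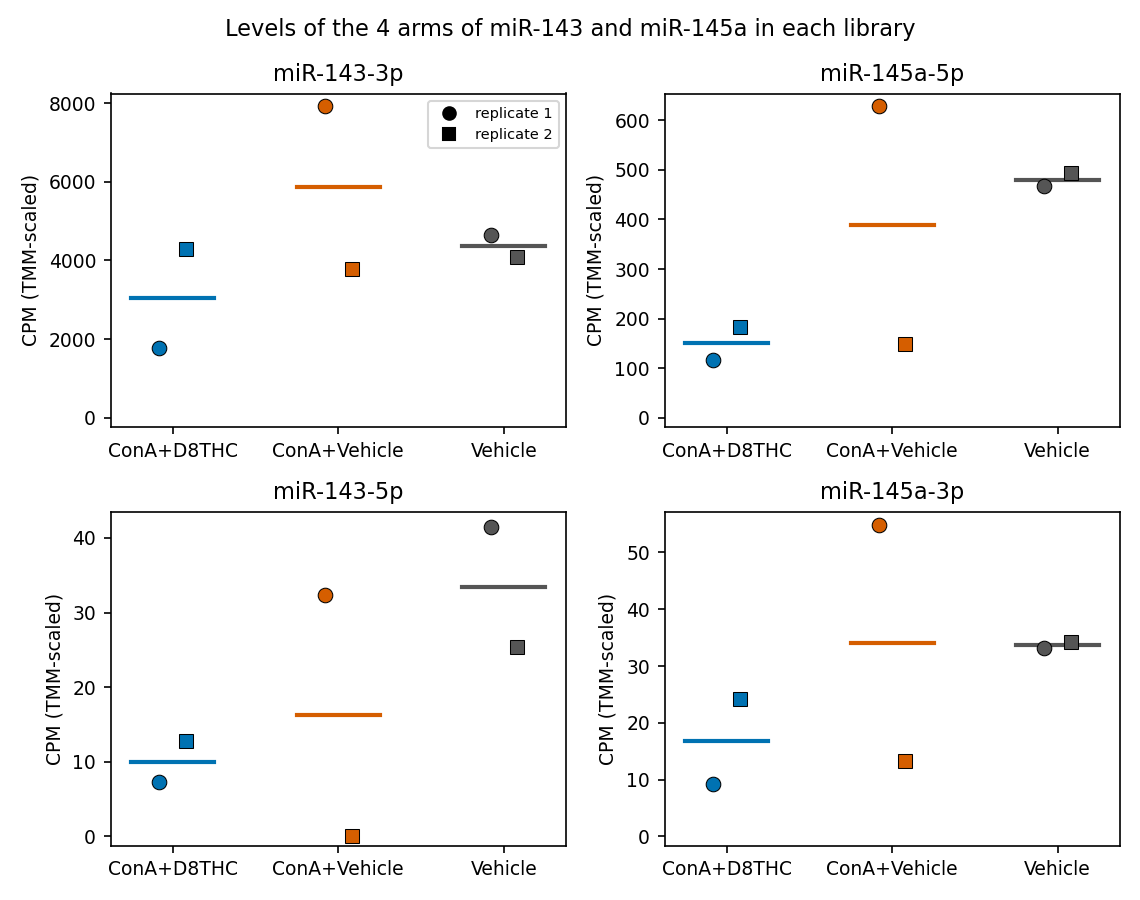
CPM of the 4 members (vertical axes, linear, from 0, one panel each) in the 6 libraries by group; circles are replicate 1, squares are replicate 2 and horizontal bars are group means. The ConA+Vehicle libraries lie far apart in every panel, at 628 and 149 CPM for miR-145a-5p, while the Vehicle libraries had 466 and 494 CPM.

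Together the 4 members took 0.202% and 0.460% of all counts in ConA+D8THC, 0.910% and 0.369% in ConA+Vehicle, and 0.4998% and 0.452% in Vehicle. The 95% Wilson intervals were 0.193% to 0.212% and 0.444% to 0.476% in ConA+D8THC, 0.881% to 0.941% and 0.348% to 0.390% in ConA+Vehicle, and 0.484% to 0.516% and 0.440% to 0.464% in Vehicle. These intervals cover counting error only. Counting error was thus far smaller than the distance between the 2 libraries of either ConA group. With 2 libraries a group, an exact two-sided permutation test cannot give a p below 0.333, so shares and ratios are given without a test.

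The first comparison asked how ConA hepatitis stood against no disease. No member passed the test between ConA+Vehicle and Vehicle (a call needed a Benjamini-Hochberg adjusted p under 0.05 over the 297 miRNAs), and all 4 had overlapping groups. Across all 297 tested miRNAs 36.7% were called (109, of which 59, or 19.9%, were higher and 50, or 16.8%, lower in ConA+Vehicle) and 67.3% had groups that did not overlap. miR-143-3p had a log2 fold change of 0.42 ± 0.47 (SE; 95% interval -0.69 to 1.53; adjusted p = 0.559 by edgeR). miR-145a-5p had -0.29 ± 0.57 (interval -1.64 to 1.06; adjusted p = 0.758 by edgeR), miR-145a-3p had 0.09 ± 0.58 (adjusted p = 0.936 by edgeR; negative with RLE factors, with no filter, by DESeq2 and by limma-voom) and miR-143-5p had -0.86 ± 0.80 (adjusted p = 0.461 by edgeR). The median of the members was -0.10, beside 0.10 over all tested miRNAs. No member had an unadjusted p under 0.05, beside 44.4% of all tested miRNAs, and none was called by DESeq2 or limma-voom. The values depended on ConA+Vehicle replicate 1. Without it the log2 fold change was -0.19 for miR-143-3p, -1.32 for miR-145a-3p and -1.67 for miR-145a-5p, of which the last was called (adjusted p = 0.00736 by edgeR), and 67 miRNAs were called over all. miR-143-5p was also called without it, against a single library with no count. Without ConA+Vehicle replicate 2 the log2 fold change was 0.40 for miR-145a-5p (adjusted p = 0.497 by edgeR), 0.02 for miR-143-5p (adjusted p = 0.986 by edgeR), 0.89 for miR-143-3p (adjusted p = 0.0577 by edgeR) and 0.71 for miR-145a-3p (adjusted p = 0.358 by edgeR).

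The second comparison asked what D8THC added to ConA. All 4 members had negative fold changes in ConA+D8THC against ConA+Vehicle, and none passed the test. Across all tested miRNAs 3.70% were called, which were 11 lower and 0 higher, and 46.8% had groups that did not overlap. miR-145a-5p had a log2 fold change of -1.39 ± 0.59 (SE; 95% interval -2.79 to 0.004; adjusted p = 0.263 by edgeR). miR-143-3p had -0.95 ± 0.47 (interval -2.07 to 0.17; adjusted p = 0.373 by edgeR), miR-145a-3p had -1.15 ± 0.64 (adjusted p = 0.407 by edgeR) and miR-143-5p had -0.87 ± 0.95 (adjusted p = 0.760 by edgeR; the log2 fold change was 0.41 by limma-voom). The median of the members was -1.05, beside -0.04 over all tested miRNAs. The groups overlapped for each of the 4 members, no member had an unadjusted p under 0.05, beside 18.9% of all tested miRNAs, and none was called by DESeq2 or limma-voom. Single libraries set these values too. Without ConA+Vehicle replicate 1, the log2 fold change of miR-145a-5p was -4.66e-05, that of miR-145a-3p was 0.27 and that of miR-143-3p was -0.32. Without ConA+Vehicle replicate 2, miR-145a-5p (-2.02, adjusted p = 1.98e-05 by edgeR) and miR-143-3p (-1.33, adjusted p = 0.0102 by edgeR) were called lower. miR-143-3p was also called lower without ConA+D8THC replicate 2 (-1.69, adjusted p = 0.000367 by edgeR) and stood at -0.42 without ConA+D8THC replicate 1. The number called over all was 17 in the fit that left out ConA+D8THC replicate 1, 24 when it was replicate 2 of that group, 17 without ConA+Vehicle replicate 2, 34 without Vehicle replicate 1 and 40 without Vehicle replicate 2.

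Against Vehicle, the ConA+D8THC libraries were lower for 3 of the 4 members without overlap, beside 37.0% of all tested miRNAs that were lower without overlap, and none of the 4 passed the adjusted threshold. Across all tested miRNAs 32.7% were called (97, of which 55, or 18.5%, were higher and 42, or 14.1%, lower) and 74.7% had groups that did not overlap. miR-145a-5p was 3.21-fold lower (log2 fold change -1.68 ± 0.59 SE; 95% interval -3.07 to -0.30; adjusted p = 0.0617 by edgeR). miR-143-5p was 3.33-fold lower (-1.73 ± 0.75; interval -3.45 to -0.02; adjusted p = 0.107 by edgeR), at 7 to 30 counts a library. miR-145a-3p was 2.09-fold lower (-1.06 ± 0.58; interval -2.35 to 0.22; adjusted p = 0.171 by edgeR). miR-143-3p had overlapping groups and a log2 fold change of -0.53 ± 0.47 (interval -1.64 to 0.58; adjusted p = 0.402 by edgeR). The median of the members was -1.37, beside -0.06 over all tested miRNAs. An unadjusted p under 0.05 was met by 2 members, miR-143-5p and miR-145a-5p, beside 45.8% of all tested miRNAs, and limma-voom called 1 member, miR-145a-5p (adjusted p = 0.0472). DESeq2 called none. This comparison shares its ConA+D8THC libraries with the second and its Vehicle libraries with the first, so its values are no independent repeat of theirs.

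Calls against Vehicle also turned on single libraries. miR-145a-5p was called lower in ConA+D8THC without ConA+Vehicle replicate 1 (adjusted p = 0.000598 by edgeR) and without ConA+Vehicle replicate 2 (adjusted p = 2.12e-05 by edgeR), libraries of neither group compared here, which enter through the filter, the scaling and the shared spread. Its adjusted p over the 16 alternative settings ran from 2.12e-05 to 0.359, and 5 of the 16 called it. miR-143-5p was called in 7 of the 16 settings, among them without ConA+D8THC replicate 2 (adjusted p = 0.0170 by edgeR), without ConA+Vehicle replicate 1 (adjusted p = 0.0166 by edgeR), without ConA+Vehicle replicate 2 (adjusted p = 0.00994 by edgeR) and without Vehicle replicate 2 (adjusted p = 0.0117 by edgeR). Without ConA+D8THC replicate 2, miR-143-3p (-1.24, adjusted p = 0.00562 by edgeR) and miR-145a-3p (-1.80, adjusted p = 0.0222 by edgeR) were called lower as well. Without ConA+D8THC replicate 1 no member was called, with log2 fold changes of -1.37 for miR-145a-5p, -1.32 for miR-143-5p, -0.46 for miR-145a-3p and -0.01 for miR-143-3p, and 63 miRNAs were called over all.

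**Figure D2:**
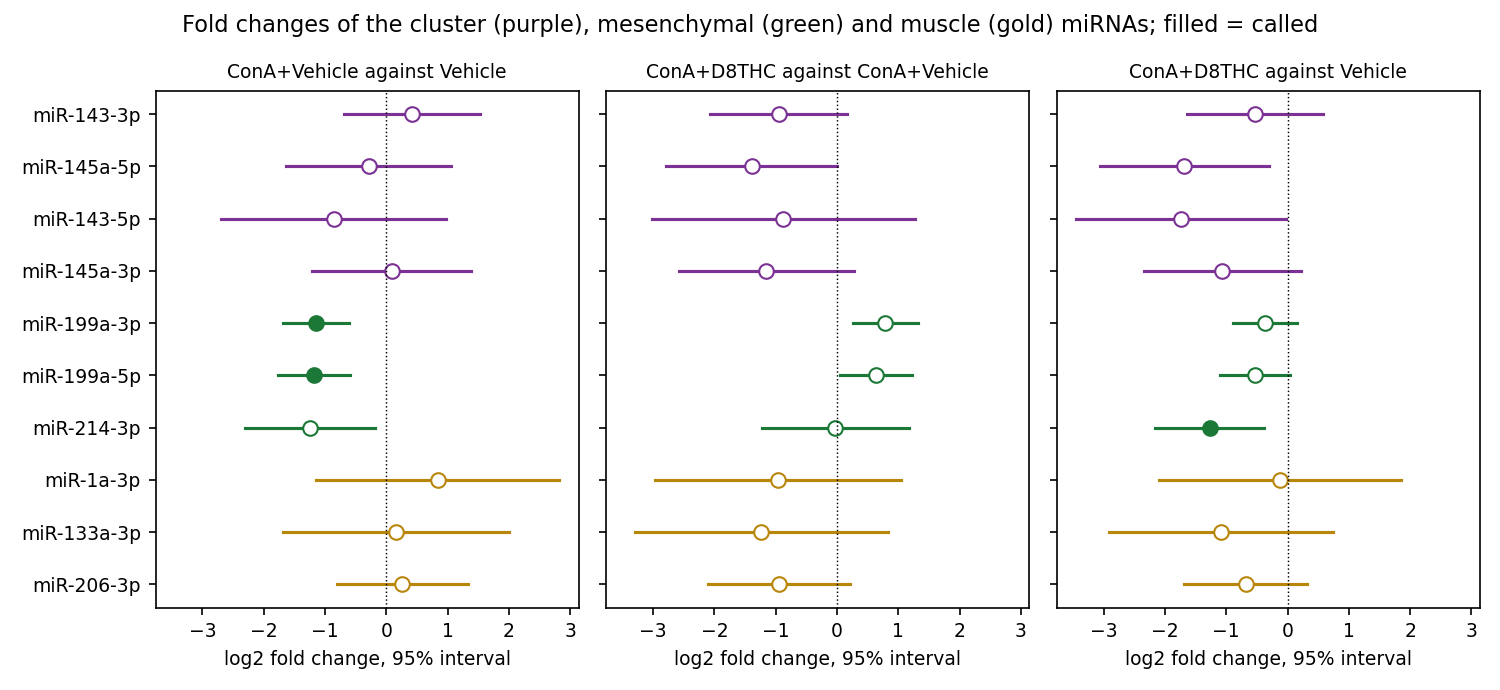
Log2 fold change with its 95% interval (horizontal axis) of the members (purple) and of the tested stellate cell (green) and muscle (gold) miRNAs in the 3 comparisons (panels); filled points passed the test. No purple point is filled, all 4 members lie below 0 in both panels of ConA+D8THC, and the members' intervals that leave out 0 are those of miR-145a-5p (-3.07 to -0.30) and miR-143-5p (-3.45 to -0.02) against Vehicle.

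The 2 libraries of each ConA group differed more for all 4 members than for the median miRNA, and those of Vehicle did so for miR-143-5p. In ConA+D8THC the replicates differed by 1.28 (log2 CPM) for miR-143-3p and by 1.16 for miR-145a-3p, which ranked 14 and 18 of 297, beside a median of 0.30 over all tested miRNAs. The differences of miR-145a-5p and miR-143-5p were both 0.64 and ranked 55 and 57. In ConA+Vehicle the replicates differed by 3.64 for miR-143-5p, 2.06 for miR-145a-5p, 1.84 for miR-145a-3p and 1.07 for miR-143-3p, which ranked 1, 7, 10 and 25, beside a median of 0.33. The passenger strands had few counts there, 13 and 0 for miR-143-5p and 22 and 4 for miR-145a-3p. Counting error therefore weighs on their ranks, which are over miRNAs of all levels, and the value of 3.64 depends on the prior count of 2. In Vehicle the differences were 0.65 for miR-143-5p, 0.19 for miR-143-3p, 0.08 for miR-145a-5p and 0.04 for miR-145a-3p, beside a median of 0.36. The direction was shared by all 4 members within each ConA group: replicate 2 was the higher library in ConA+D8THC, and replicate 1 was the higher library in ConA+Vehicle. With 1 pair of libraries a group, these are differences between libraries and not estimates of how much mice vary.

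**Figure D3:**
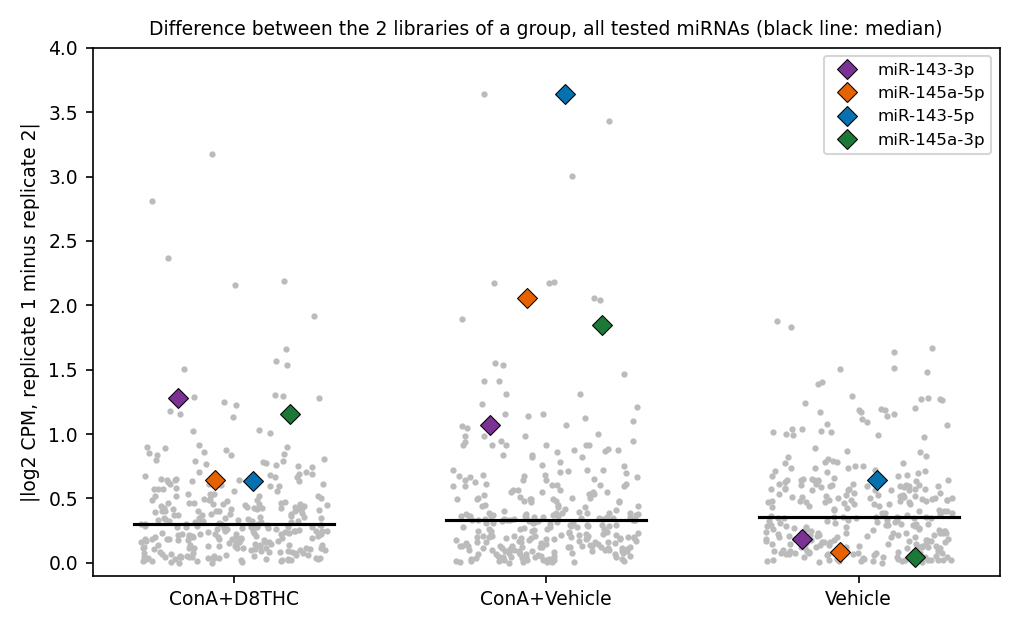
Absolute difference in log2 CPM between the 2 libraries of each group (vertical axis); grey points are all 297 tested miRNAs, coloured diamonds are the members and black lines are medians. The members lie at 0.64 to 1.28 in ConA+D8THC, 1.07 to 3.64 in ConA+Vehicle and 0.04 to 0.65 in Vehicle.

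The guide strands of the neighbouring hairpins can be set against each other within a library, which takes library size out of the comparison. miR-143-3p exceeded miR-145a-5p by 15.1 and 23.3 times in counts in ConA+D8THC, 12.6 and 25.1 times in ConA+Vehicle, and 9.98 and 8.26 times in Vehicle. Ratios add a pseudocount of 0.5 to both counts, here and below. All 4 ConA libraries thus had a higher ratio than both Vehicle libraries. On the log2 scale the ratio averaged 4.23 ± 0.44 in ConA+D8THC, 4.15 ± 0.70 in ConA+Vehicle and 3.18 ± 0.19 in Vehicle (SD, n = 2 each). The ratio also carries any difference in how well each miRNA is captured in a library, so its size is not a ratio of molecules.

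As a share of both guide strands, miR-145a-5p made up 6.18% and 4.10% in ConA+D8THC, 7.34% and 3.79% in ConA+Vehicle, and 9.10% and 10.8% in Vehicle. The Wilson intervals were 5.16% to 7.37% and 3.46% to 4.85% in ConA+D8THC, 6.51% to 8.26% and 2.85% to 5.04% in ConA+Vehicle, and 8.22% to 10.1% and 9.98% to 11.7% in Vehicle. Only the interval of ConA+Vehicle replicate 1 reached that of a Vehicle library, replicate 1. The 2 ConA groups overlapped in this share.

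The passenger strand of miR-145a made up 6.47% to 11.6% of its hairpin's counts. miR-145a-3p was 7.38% and 11.6% of both arms in ConA+D8THC, 8.03% and 8.16% in ConA+Vehicle, and 6.63% and 6.47% in Vehicle, so that all 4 ConA libraries were above both Vehicle libraries, with overlapping Wilson intervals. miR-143-5p was 0.406% and 0.297% of both arms of miR-143 in ConA+D8THC, 0.407% and 0% in ConA+Vehicle, and 0.881% and 0.618% in Vehicle. The library with no count of miR-143-5p allows a share of up to 0.336% by the Wilson interval. All 4 ConA libraries were below both Vehicle libraries in the share of miR-143-5p, on 0 to 13 counts each, against 30 and 29 counts in Vehicle, and the Wilson intervals of 3 of these 4 libraries overlapped that of a Vehicle library.

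**Figure D4:**
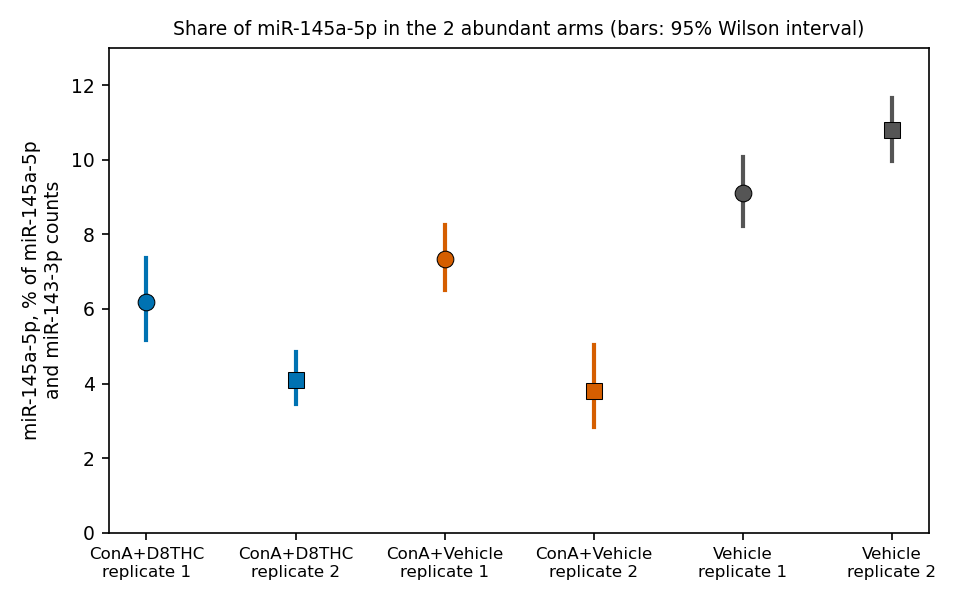
Share of miR-145a-5p in the counts of miR-145a-5p and miR-143-3p, in percent, in each of the 6 libraries (horizontal axis); points are libraries and bars are 95% Wilson intervals. The share was 3.79% to 7.34% in the 4 ConA libraries and 9.10% and 10.8% in the Vehicle libraries.

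Of the 6 other miRNAs listed for stellate cells and fibroblasts 3 were tested, and 2 of them, miR-199a-3p and miR-199a-5p, were lower in ConA+Vehicle than in Vehicle. Among the rest, miR-199b-3p had no entry, and miR-199b-5p and miR-214-5p missed the filter on 1 to 18 counts a library. In ConA+Vehicle and Vehicle, miR-199b-5p had 12.5 and 3.31, and 8.28 and 11.4 CPM, which overlap. miR-214-5p had 2.49 and 3.31, and 6.90 and 15.8 CPM. miR-199a-3p had 4420 and 6870 CPM in ConA+D8THC, 3052 and 3492 CPM in ConA+Vehicle, and 6966 and 7588 CPM in Vehicle. It was lower in ConA+Vehicle than in Vehicle (log2 fold change -1.15 ± 0.24 SE, adjusted p = 0.00391 by edgeR), where miR-143-3p stood at 0.42. miR-199a-5p had 683 and 1039 CPM in ConA+D8THC, 626 and 473 CPM in ConA+Vehicle, and 1167 and 1324 CPM in Vehicle, and was lower in ConA+Vehicle than in Vehicle too (-1.18 ± 0.27, adjusted p = 0.00589 by edgeR), though not without ConA+Vehicle replicate 2 (-0.98, adjusted p = 0.0551 by edgeR). Over the list, 2 of 3 were called lower in this comparison, beside 16.8% of all tested miRNAs, and miR-214-3p stood at -1.24 (adjusted p = 0.0667 by edgeR).

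In ConA+D8THC against ConA+Vehicle, miR-199a-3p had a log2 fold change of 0.79 ± 0.24 (adjusted p = 0.0929 by edgeR), opposite in sign to the 4 members, and 8 of 16 alternative settings called it, among them those without ConA+D8THC replicate 1 (1.08, adjusted p = 0.00973 by edgeR), Vehicle replicate 1 (adjusted p = 0.0197 by edgeR) and Vehicle replicate 2 (adjusted p = 0.00643 by edgeR). It was not called without ConA+D8THC replicate 2 (0.46, adjusted p = 0.752 by edgeR), ConA+Vehicle replicate 1 (0.69, adjusted p = 0.445 by edgeR) or ConA+Vehicle replicate 2 (0.94, adjusted p = 0.207 by edgeR). miR-199a-5p had 0.64 (adjusted p = 0.213 by edgeR) and was called in 1 of 16 settings, that without ConA+D8THC replicate 1 (0.93, adjusted p = 0.0351 by edgeR), while it stood at 0.34 without ConA+D8THC replicate 2 (adjusted p = 0.826 by edgeR). miR-214-3p had 12.4 and 12.8 CPM in ConA+D8THC, 12.5 and 13.2 CPM in ConA+Vehicle, and 26.2 and 34.2 CPM in Vehicle. These levels rest on few counts, 12 and 9, 5 and 4, and 19 and 39 in the same order. miR-214-3p was lower in ConA+D8THC than in Vehicle (-1.27 ± 0.40, adjusted p = 0.0341 by edgeR), in 7 of 16 alternative settings as well. The others of the 3 were not called there, with -0.37 for miR-199a-3p (adjusted p = 0.243 by edgeR) and -0.53 for miR-199a-5p (adjusted p = 0.128 by edgeR). Among the settings that did not call miR-214-3p were those without ConA+D8THC replicate 1 (adjusted p = 0.152 by edgeR), ConA+D8THC replicate 2 (0.111), ConA+Vehicle replicate 2 (0.0537) and Vehicle replicate 2 (0.203). Differences between the cluster and these miRNAs were not tested.

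Within libraries, miR-143-3p had 0.401 and 0.625 times the counts of miR-199a-3p in ConA+D8THC, 2.60 and 1.08 times in ConA+Vehicle, and 0.669 and 0.539 times in Vehicle. Both ConA+Vehicle libraries were above the other 4. miR-145a-5p had 0.0265 and 0.0268 times the counts of miR-199a-3p in ConA+D8THC, 0.206 and 0.0431 times in ConA+Vehicle, and 0.0671 and 0.0652 times in Vehicle. Here both ConA+D8THC libraries were below the other 4, and the ConA+Vehicle libraries lay on either side of Vehicle.

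Striated muscle can also bring miRNAs to a liver preparation, and its markers were present at low levels. Of the 7 listed, 3 were tested, and 0 were called in any of the 3 comparisons. Of all tested miRNAs, 36.7%, 3.70% and 32.7% were called in these comparisons, in the order given above. The cardiac miRNAs miR-208a-3p, miR-208b-3p and miR-499-5p were at 0 in all 6 libraries. miR-1a-3p, an abundant miRNA of muscle, had 20.6 and 209 CPM in ConA+D8THC, 264 and 172 CPM in ConA+Vehicle, and 132 and 114 CPM in Vehicle. miR-133a-3p, its partner in muscle, had 1.03 and 24.2 CPM in ConA+D8THC (1 and 17 counts), 27.4 and 26.5 CPM in ConA+Vehicle (11 and 8 counts), and 26.2 and 22.8 CPM in Vehicle (19 and 26 counts). In CPM, like miR-143-3p, both were lowest in ConA+D8THC replicate 1 and highest in ConA+Vehicle replicate 1. For miR-133a-3p the highest values, 27.4, 26.5 and 26.2 CPM, were close and rested on few counts. The other tested marker, miR-206-3p, was lowest in ConA+D8THC replicate 1 too, but highest in ConA+Vehicle replicate 2. Summed, the muscle list took 0.00329% and 0.0248% of counts in ConA+D8THC, 0.0323% and 0.0208% in ConA+Vehicle, and 0.0170% and 0.0149% in Vehicle, and its part in the results on the cluster was not tested. miR-206-3p, of skeletal muscle, had 9.29 and 9.96 CPM in ConA+D8THC, 15.0 and 23.2 CPM in ConA+Vehicle, and 15.2 and 15.8 CPM in Vehicle.

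ConA+D8THC replicate 1 decided the values of miR-1a-3p and miR-133a-3p in ConA+D8THC. With it as the lone ConA+D8THC library, miR-1a-3p was called lower against ConA+Vehicle (log2 fold change -3.37, adjusted p = 3.41e-07 by edgeR) and against Vehicle (-2.51, adjusted p = 7.95e-05 by edgeR), and miR-133a-3p likewise (-4.46, adjusted p = 0.000775, and -4.30, adjusted p = 0.000252, by edgeR). With both libraries, miR-1a-3p stood at -0.96 (adjusted p = 0.679 by edgeR) and -0.12 (adjusted p = 0.910 by edgeR). Without that library, miR-1a-3p was called higher in ConA+Vehicle than in Vehicle (0.83, adjusted p = 0.0431 by edgeR, against 0.512 with all libraries). miR-143-3p had 83.8 and 20.5 times the counts of miR-1a-3p in ConA+D8THC, 29.9 and 21.7 times in ConA+Vehicle, and 35.0 and 35.7 times in Vehicle.

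**Figure D5:**
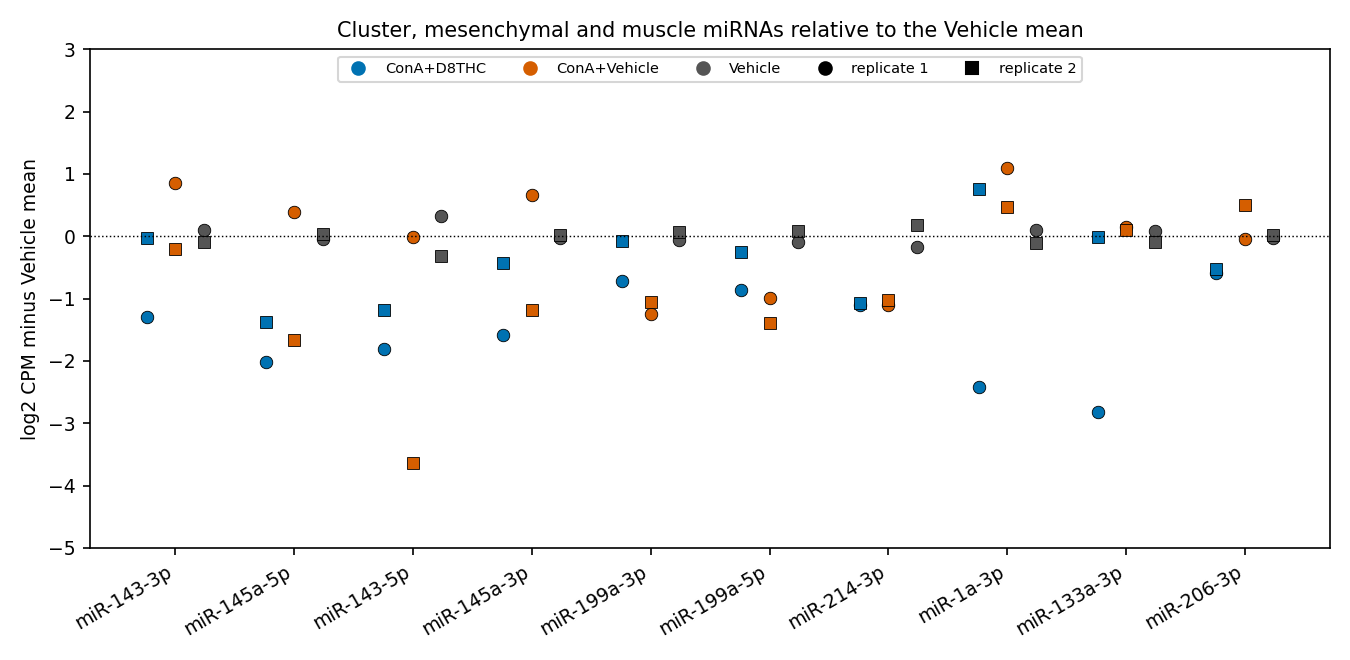
Log2 CPM minus the Vehicle mean (vertical axis) of each member and of the tested stellate cell and muscle miRNAs (horizontal axis); each point is a library, coloured by group, with circles for replicate 1 and squares for replicate 2. ConA+D8THC replicate 1 lies below 0 for the 4 members, for miR-1a-3p (-2.42) and for miR-133a-3p (-2.82). It also lies below 0 for miR-199a-3p (-0.72), miR-199a-5p (-0.86), miR-214-3p (-1.11) and miR-206-3p (-0.60). miR-199a-3p, miR-199a-5p and miR-214-3p are low in both ConA+Vehicle libraries. The lowest point of miR-143-5p is the library with no count, placed by the prior count of 2.

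Across the 6 libraries, miR-143-3p had a Pearson r of log2 CPM of 0.899 with miR-145a-3p, 0.786 with miR-145a-5p and 0.481 with miR-143-5p. The correlation of miR-145a-5p with miR-145a-3p was 0.948 and that with miR-143-5p was 0.817. Among 288 other miRNAs with a mean of at least 10 CPM, the 5 most like miR-143-3p were miR-1a-3p (r = 0.912), miR-429-3p (0.905), miR-133a-3p (0.857), miR-411-5p (0.797) and miR-31-5p (0.785). Without ConA+D8THC replicate 1 and ConA+Vehicle replicate 1, the libraries farthest from the median of miR-143-3p, r was 0.823 for miR-429-3p, -0.175 for miR-1a-3p, 0.0282 for miR-133a-3p, -0.278 for miR-411-5p and -0.979 for miR-31-5p. The 4 libraries left lie between 3776 and 4659 CPM of miR-143-3p, a narrow range for a correlation. In these 4 libraries the r of miR-143-3p was 0.749 with miR-145a-3p, 0.580 with miR-145a-5p and 0.860 with miR-143-5p. That of miR-145a-5p was 0.903 with miR-145a-3p and 0.866 with miR-143-5p. The 5 most like miR-145a-5p were miR-224-5p (0.891), miR-3473b (0.890), miR-330-5p (0.889), miR-93-3p (0.880) and miR-505-3p (0.861). Without the 2 libraries left out above, r was 0.829 to 0.947. All 5 had low counts, 2 to 24 a library, so counting error weighs on these values. miR-199a-3p had an r of -0.143 with miR-143-3p and 0.147 with miR-145a-5p, and of 0.733 and 0.736 without the same 2 libraries. The 5 most like each guide strand were picked as the highest r of 288 in these same libraries, so high values come with the picking. The 4 libraries are part of those used to pick, so r in them is no independent support. These correlations describe 6 libraries that share groups, depth and normalisation.

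miRNAs linked to liver fibrosis, miR-21a-5p, which is raised in activated stellate cells and in many inflamed tissues, and the miR-29 family, which targets collagen messenger RNAs, were set beside the cluster. Of these 4, miR-21a-5p was higher in ConA+Vehicle than in Vehicle (log2 fold change 1.54, adjusted p = 0.0123 by edgeR) and in ConA+D8THC than in Vehicle (1.51, adjusted p = 0.0182 by edgeR). Its size turned on the Vehicle libraries: it was called in all 16 settings of both comparisons, but stood at 2.31 in ConA+Vehicle and 2.29 in ConA+D8THC without Vehicle replicate 1, and at 1.04 in ConA+Vehicle and 1.03 in ConA+D8THC without Vehicle replicate 2. miR-29c-3p was higher in ConA+Vehicle than in Vehicle (0.62, adjusted p = 0.0448 by edgeR), but not without ConA+D8THC replicate 2 (adjusted p = 0.0549 by edgeR), ConA+Vehicle replicate 1 (0.0627), ConA+Vehicle replicate 2 (0.355) or Vehicle replicate 2 (0.202). With all 6 libraries the call of miR-29c-3p was also lost with RLE factors (adjusted p = 0.0913), with markers left out (0.0570), with no filter (0.274), at a mean of at least 10 CPM (0.0587) and by DESeq2 (0.141), so that 7 of 16 settings called it. Of the 4, 2 were called higher in ConA+Vehicle against Vehicle, beside 19.9% of all tested miRNAs. In ConA+D8THC against Vehicle 1 was called higher, beside 18.5%. None of the 4 was called between ConA+D8THC and ConA+Vehicle by edgeR, where 3.70% of all tested miRNAs were called.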

How the data were processed

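Small RNA was sequenced from liver immune cells, 2 libraries a group. Per the labels' protocols, livers were dissociated with a Miltenyi kit, RNA was isolated with miRNeasy, QIAseq miRNA libraries were run on a NextSeq 550, and the authors aligned and counted reads in QIAGEN's GeneGlobe portal on mm10. The deposited values are raw counts per mature miRNA. The sources used here do not give the aligner, the miRNA annotation release, whether unique molecular identifiers were used, how many mice made up a library, and when tissue was taken. The labels call the libraries biological replicates. P-values weigh group differences against the spread between these libraries, which the fit estimates in part from all tested miRNAs.

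Of 1960 miRNAs, 806 had a count and filterByExpr kept 297, with at least 99.9% of each library's counts. edgeR 4.0.16 (R 4.3.3) fitted all 6 libraries by group with TMM factors (3 residual degrees of freedom, robust glmQLFit, glmQLFTest). P-values were Benjamini-Hochberg adjusted over 297 miRNAs, called under 0.05. Each SE is the size of the log2 fold change divided by the root of its F value. Log2 CPM for likeness and replicate differences used a prior count of 2. Alternatives used limma 3.58.1 (voom), DESeq2 1.42.0, other scalings and filters, and each library left out. The edgeR fit was also run on simulated data in which all miRNAs shared the same spread. That run therefore does not bear on the members, whose libraries differed more than most in the ConA groups. Plots used Python 3.11.15 and matplotlib 3.10.9.

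The members and the marker lists were chosen with earlier results of these data known. Named besides the members are the tested stellate cell and muscle markers, the 5 miRNAs most like each guide strand, miR-21a-5p and the miR-29 family. Member sequences are not reported here.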

Additional observations from a re-analysis of the deposited data

How the results depend on the processing

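Low counts limited the passenger strands, and 2 libraries a group limited every comparison; where a group was left with 1 library, it was assumed to vary like the others. Scalings moved the median of all tested miRNAs by -0.11 (log2, RLE factors) in ConA+Vehicle against Vehicle; by 0.10 (RLE), -0.10 (upper quartile), 0.15 (hepatocyte and endothelial markers left out) and 0.10 (mean of at least 10 CPM) in ConA+D8THC against ConA+Vehicle; and by 0.10 (library totals) and 0.11 (markers left out) in ConA+D8THC against Vehicle. Log2 fold changes of miR-143-3p and miR-145a-5p kept their sign in all settings that used the 6 libraries. Replicate numbers were shared between groups, but no label says that they mark a common source; with the replicate block (correlations of same-numbered libraries 0.203, 0.0726 and 0.238) no member was called, miR-145a-5p stood at -1.67 against Vehicle (adjusted p = 0.252 by edgeR), and 44 miRNAs (12 higher, 32 lower) were called in ConA+D8THC against ConA+Vehicle. Of the miRNAs set beside the cluster, the block added calls of miR-199a-3p in that comparison (adjusted p = 0.00166 by edgeR), miR-29a-3p in ConA+Vehicle against Vehicle (0.0372) and miR-199a-5p in ConA+D8THC against Vehicle (0.0354).

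With each library left out in turn, the number called ran from 67 to 129 in ConA+Vehicle against Vehicle, 8 to 40 in ConA+D8THC against ConA+Vehicle and 63 to 112 in ConA+D8THC against Vehicle. The 11 calls of ConA+D8THC against ConA+Vehicle were 17 by upper quartile, 19 with no filter, 19 at a mean of at least 10 CPM, 17 by DESeq2, 18 from the 4 libraries alone and 26 at an adjusted p under 0.1; with markers left out they were 14 (5 higher, 9 lower). miR-143-5p and miR-214-3p have no value from the 4 libraries alone there, as they missed its filter.

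Log2 fold changes with each library left out ran as follows. In ConA+Vehicle against Vehicle they were -0.19 to 0.89 for miR-143-3p, -7.65 to 0.0207 for miR-143-5p, -1.67 to 0.40 for miR-145a-5p and -1.32 to 0.71 for miR-145a-3p. In ConA+D8THC against ConA+Vehicle they were -1.69 to -0.32, -1.67 to 5.93, -2.02 to -4.66e-05 and -1.89 to 0.27 for the same members. In ConA+D8THC against Vehicle they were -1.24 to -0.00862, -2.09 to -1.32, -1.996 to -1.37 and -1.80 to -0.46. The values of -7.65 and 5.93 for miR-143-5p are fits against a lone library with no count and are no bound. Other settings that changed a call or sign were, for miR-145a-3p in ConA+Vehicle against Vehicle, -0.0335 (RLE), -0.00488 (no filter), -0.0847 (DESeq2) and -0.14 (limma-voom); for miR-143-5p in ConA+D8THC against ConA+Vehicle, 0.41 (limma-voom); and, in ConA+D8THC against Vehicle, -1.80 (upper quartile), -1.71 (no filter) and -1.65 (4 libraries) for miR-143-5p, and -1.69 (no filter), -1.73 (limma-voom) and -1.61 (4 libraries) for miR-145a-5p. miR-145a-5p was also called with no filter in ConA+D8THC against ConA+Vehicle (-1.31, adjusted p = 0.0170 by edgeR). The share of the 4 members in Vehicle was 0.859% with hepatocyte and endothelial markers left out of the total. That is a share of a smaller total, so it cannot be set beside the ConA shares of all counts given above. The causes of these changes were not tested.

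Among the miRNAs set beside the cluster, signs turned with a library left out for miR-206-3p (-0.0415 to 0.59) and miR-29b-3p (-0.12 to 0.64) in ConA+Vehicle against Vehicle, and for miR-1a-3p (-2.51 to 0.78), miR-133a-3p (-4.30 to 0.00717) and miR-29b-3p (-0.0753 to 0.67) in ConA+D8THC against Vehicle. In ConA+D8THC against ConA+Vehicle, miR-214-3p stood at 0.0783 (RLE), 0.0343 (totals), 0.13 (markers left out), 0.0424 (no filter), 0.0796 (at least 10 CPM), 0.0722 (DESeq2) and -0.0787 to 0.0670 (a library left out). miR-21a-5p stood at 0.0720, 0.0394, 0.12, 0.0329, 0.0791, 0.0679 and -0.18 to 0.14 in the same order. miR-29a-3p stood at 0.0297 (markers left out) and -0.21 to 0.0389 (a library left out), and miR-29b-3p at -0.0894 (upper quartile) and -0.0773 to 0.18 (a library left out).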
